A study of Arabidopsis thaliana with 12 samples.

Results

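The plastid-encoded genes are the genes of the chloroplast genome, taken here as every gene whose identifier begins with ATCG. There were 88 of them among the 26925 genes listed in each library. By matching gene lengths to an annotation, 80 could be paired with a gene name (74 different names, since 6 genes are listed as a pair of entries under 1 name), and 8 are given by identifier alone. Of the 88, 86 reached 1 TPM, a length-corrected share of a library's transcripts, in at least 3 of 12 libraries and were tested. The other 2, ndhF and ccsA, did not.

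The study profiled Arabidopsis thaliana by bulk RNA sequencing, within work on maternal climate and hormone transport to the next generation. There were 4 groups of 3 libraries: fruit and seed of Col-0, the wild type, and fruit and seed of lhp1-6, an allele of LHP1, which encodes a Polycomb-associated chromatin protein (the labels give the allele and not its lesion). Every plant was kept at 22 °C up to bolting, after which days were at 16 °C and nights at 14 °C. Embryos had bent cotyledons when siliques were opened, on day 14 to 15 after pollination, and each library pooled 3 to 5 siliques, with seeds taken out under a microscope and the rest of the silique kept as fruit. The pools are labelled biological replicates without a word on whether plants were shared, so the spread behind each p-value could be partly technical.

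Plastid genes encode core subunits of the photosynthetic complexes, the large subunit of Rubisco, part of the plastid ribosome and the core of a bacterial-type RNA polymerase. Most are transcribed in units of several genes. That bacterial-type polymerase needs sigma factors made in the nucleus to find its promoters, and it transcribes mainly photosynthesis genes, while a phage-type polymerase made in the nucleus transcribes the rpoB unit, accD and some other housekeeping genes. Both the outer fruit wall and the developing Arabidopsis embryo are green, and mature seeds lose their chlorophyll. Plastid transcripts mostly lack long poly(A) tails, so their share of a library depends on how RNA was selected. That step is not given in the sources used here.

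Plastid genes took a small share of each library. In Col-0 fruit they held 0.111%, 0.0640% and 0.0861% of the listed TPM in replicates 1, 2 and 3, and in Col-0 seed 0.0862%, 0.0848% and 0.0633%. In lhp1-6 fruit the shares were 0.0688%, 0.0729% and 0.0686%, and in lhp1-6 seed 0.0516%, 0.151% and 0.0462%. The means were 0.0869% ± 0.0234 (SD, n = 3), 0.0781% ± 0.0128, 0.0701% ± 0.00244 and 0.0828% ± 0.0587, and the ranges of the 4 groups overlapped. In bulk tissue, fewer cells with plastids and less plastid RNA per cell cannot be told apart. Counts recovered from the steps of the TPM values came to 22086542 to 27998059 reads per library, of which 6808 to 20850 fell on plastid genes, and between 2 and 33 plastid genes per library rested on fewer than 10 reads.

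Before any comparison, 2 libraries stood above their groups. In lhp1-6 seed replicate 2, all 78 plastid genes that averaged at least 1 TPM in the other 2 libraries of the group lay above that average, with a median ratio of 3.23 (1.39 for psaJ to 6.02 for ndhH). The median ratio was 1.06 over all genes and 1.99 over 39 mitochondrion-encoded genes. In Col-0 fruit replicate 1, 53 of 65 plastid genes lay above the other 2 libraries, with a median ratio of 1.54, against 0.9998 over all genes and 0.840 over 38 mitochondrion-encoded genes. Others lay low: 3 of 72 plastid genes were above the rest of the group in Col-0 fruit replicate 2 (median ratio 0.595, to an average that holds the high replicate 1) and 10 of 86 in Col-0 seed replicate 3 (0.718). The 2 high libraries differed in seed markers as well. The summed level of 11 seed storage, oil body and seed coat genes was 37327 TPM in lhp1-6 seed replicate 2 against 85230 and 98996 TPM in its group, and 3336 TPM in Col-0 fruit replicate 1 against 533.5 and 451 TPM. The lower sum in lhp1-6 seed replicate 2 came from the storage and oil body genes, while the seed coat genes BAN (413 against 368 and 386 TPM) and TT10 (753 against 730 and 732 TPM) were not lower there. The part of these markers in the results was not tested.

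**Figure D1:**
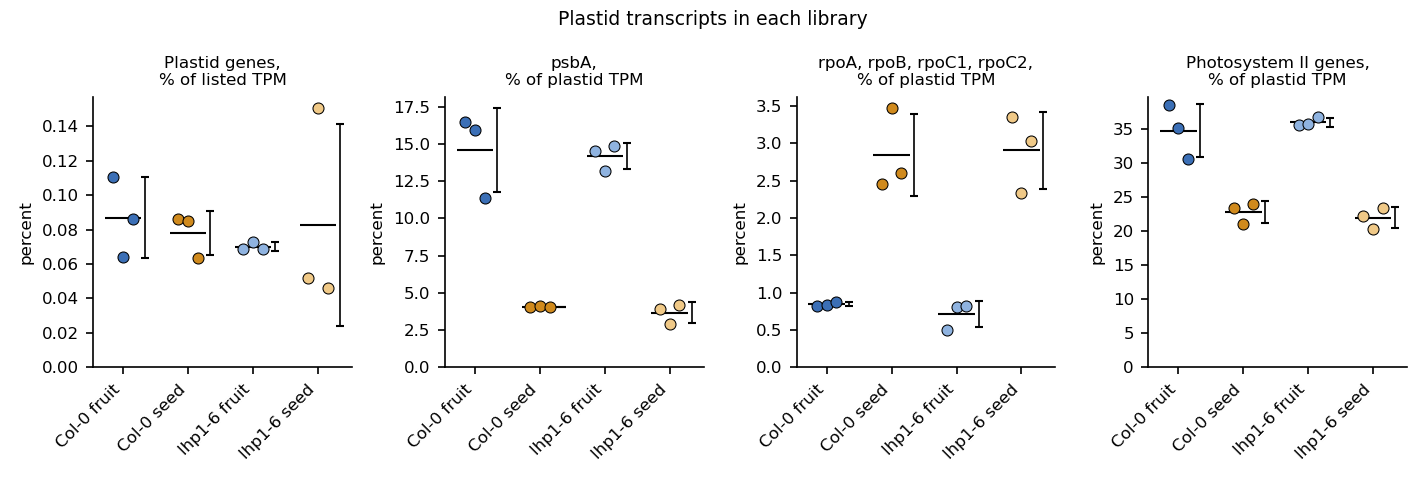
Share of the listed TPM held by all plastid genes, and shares of the plastid TPM held by psbA, by the 4 RNA polymerase genes and by the photosystem II genes, in percent. Points are single libraries in replicate order, horizontal lines are group means and bars are 1 SD (n = 3). The plastid share ranges from 0.0462% to 0.151% and overlaps between groups, while psbA, polymerase and photosystem II shares part fruit from seed in both genotypes. The photosystem II share includes psbA, and its rest without psbA overlaps between tissues in Col-0.

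The labels held in the targeted gene and in the tissues. LHP1 stood at 15.3 to 23.7 TPM in the Col-0 libraries and at 0.310 to 0.858 TPM in those labelled lhp1-6. All 11 seed markers were higher in seed than in fruit in both genotypes. Of 5 fruit wall and valve margin genes, 3 were lower in Col-0 seed and 4 in lhp1-6 seed, with FUL listed at 0 in 2 Col-0 seed libraries and IND in 1, while SHP2 was higher in seed in both. All 3 phloem and xylem genes were lower in seed in both genotypes. Summed seed markers in fruit libraries were 451 to 3336 TPM in Col-0 and 6484 to 9599 TPM in lhp1-6. Of 3 guard cell genes, TGG1 was higher in lhp1-6 fruit (4.3, adjusted p = 0.000853), and FAMA and MYB60 had changes of 0.37 and 0.62 (adjusted p = 0.0765 and 0.24). Their sum, 29.6 to 72.1 TPM in fruit of Col-0 and 322 to 824 TPM in lhp1-6 fruit, is mostly TGG1.

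The makeup of the plastid transcripts parted the tissues where their total did not. In fruit, psbA held 11.4% to 16.5% of the plastid TPM and in seed 2.89% to 4.19%, with no overlap, and the 3 most abundant plastid genes together held 28.2% to 31.8% in fruit and 11.1% to 13.7% in seed. Photosystem II genes together, psbA among them, made up 30.7% to 38.6% in fruit and 20.4% to 24.1% in seed. psbA held much of this parting. In Col-0 fruit replicate 2 the photosystem II share was 35.2%, of which psbA was 16.0%, and in Col-0 seed replicate 3 they were 24.1% and 4.05%. The rest of the share thus overlapped between tissues in Col-0. In lhp1-6 it still parted them, with 35.6% and 14.6% in fruit replicate 1 against 23.5% and 4.19% in seed replicate 3. The 15 photosystem II genes had median changes from fruit to seed of -0.02 in Col-0 and -0.31 in lhp1-6. Of these genes, 2 and 4 were called lower, and 0 and 1 higher. The share of the 4 RNA polymerase genes was larger in seed, at 0.506% to 0.872% in fruit and 2.33% to 3.47% in seed. Ribosomal protein genes of both subunits overlapped between tissues, at 17.3% to 31.4% in fruit and 26.9% to 32.7% in seed. rbcL was the most abundant plastid gene in all 6 seed libraries, and psbA in the fruit libraries other than Col-0 fruit replicate 3, where rpl32 led. These are shares of a sum over the members, given as a description with no test.

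**Figure D2:**
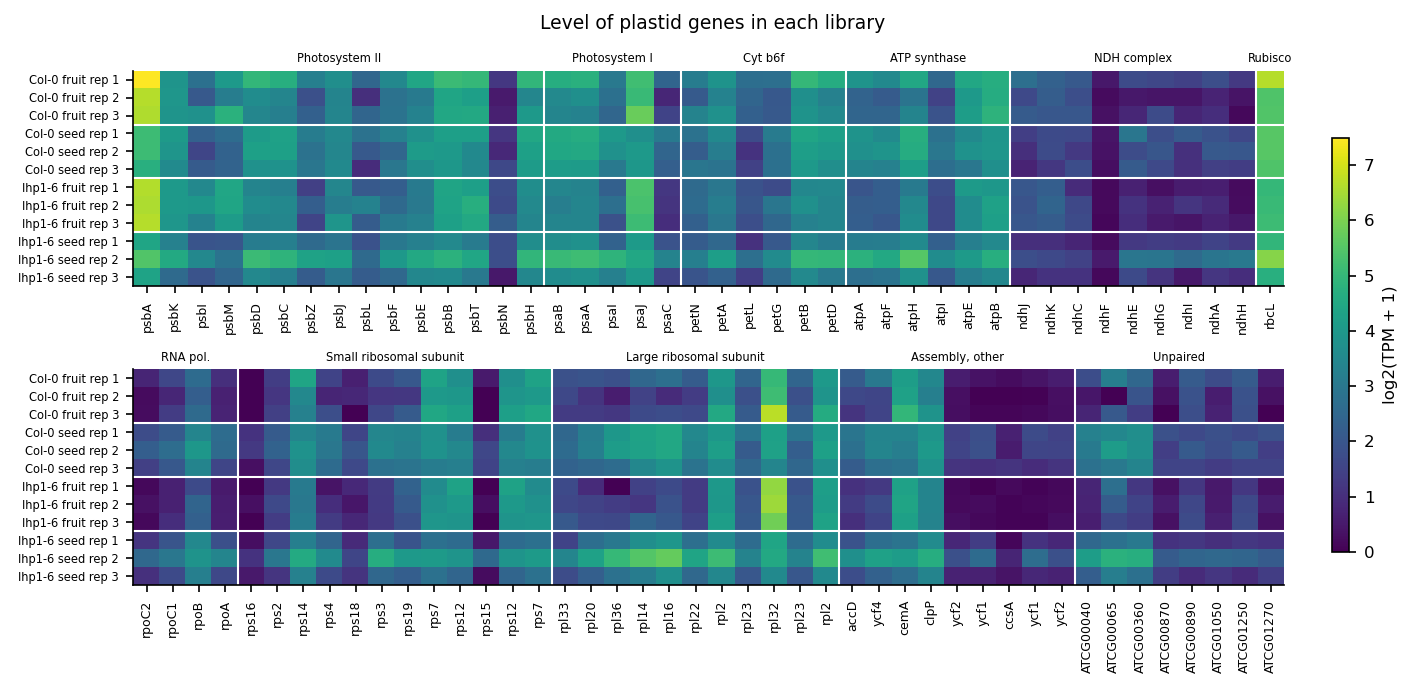
Level of plastid genes in the 12 libraries, as log2(TPM + 1) in colour, with genes in columns grouped by function and libraries in rows. psbA is the brightest column in fruit other than in Col-0 fruit replicate 3, where rpl32 is brighter, lhp1-6 seed replicate 2 is brighter than its group, and ndhF stays at or below 0.457 TPM.

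Seed was then compared with fruit within each genotype, as differences in log2(TPM + 1), a scale that compresses fold changes of weak genes. In Col-0, 28 of 86 plastid genes were higher in seed and 10 lower (limma, adjusted p under 0.05), where 45.3% of all genes tested were higher and 37.7% lower. In lhp1-6, 32 were higher and 11 lower, against 39.3% and 41.1% of all genes. The same shares over all genes apply to the counts by function below. In either direction, 44.2% of plastid genes were called in Col-0 against a background of 83%, and 50.0% in lhp1-6 against 80.4%. Their median change was 0.52 in Col-0 and 0.63 in lhp1-6, beside 0.12 and -0.02 over all genes tested. Seed libraries lay wholly above fruit for 33 members in Col-0 (background 47%) and 38 in lhp1-6 (40.8%), and wholly below for 16 (39%) and 9 (42.4%). With the plastid total set equal in every library, 47 were higher (background 45.4%) and 17 lower (37.8%) in Col-0, and 48 (39.4%) and 15 (41.2%) in lhp1-6. Without lhp1-6 seed replicate 2, the lhp1-6 counts were 25 higher (36.3%) and 21 lower (40.6%). Without that library and Col-0 fruit replicate 1, there were 52 higher (45.3%) and 16 lower (38.4%) in Col-0, and 31 (37.5%) and 24 (41.5%) in lhp1-6. Both libraries were picked for their plastid values, so results without them, here and below, are descriptions. Leaving out 1 library at a time ended 7 of the 38 calls in Col-0 and 11 of the 43 in lhp1-6 at least once, and the gene accounts give those of named genes.

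Most members called in 1 genotype were called in the same direction in the other. The share of all genes called alike in both was not computed. The libraries of the 2 contrasts do not overlap, and 22 genes were higher in seed in both genotypes (78.6% of those higher in Col-0 and 68.8% of those higher in lhp1-6), 7 were lower in both (70.0% and 63.6%), and none was called in opposite directions. Changes had the same sign for 81 of 86 genes, 94.2% of them, beside 91.8% of all genes tested. Across the 86 genes the changes in the 2 genotypes had a Pearson's r of 0.94 and a Spearman's rho of 0.92, beside 0.96 and 0.96 over all 19946 genes. Signs and correlations were thus near those over all genes, and the likeness of the genotypes is not particular to plastid genes. These genes share transcription units and libraries, so the correlations are descriptions. The 7 genes lower in both were psbA, psbM, psaJ, ndhJ, ndhK, cemA and rpl32. The change from fruit to seed differed between the genotypes for no plastid gene (limma, adjusted p under 0.05, 0 of 86, where 5.51% of all genes passed, 1.72% upward and 3.8% downward), so a call in 1 genotype and not the other is no sign of a difference.

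**Figure D3:**
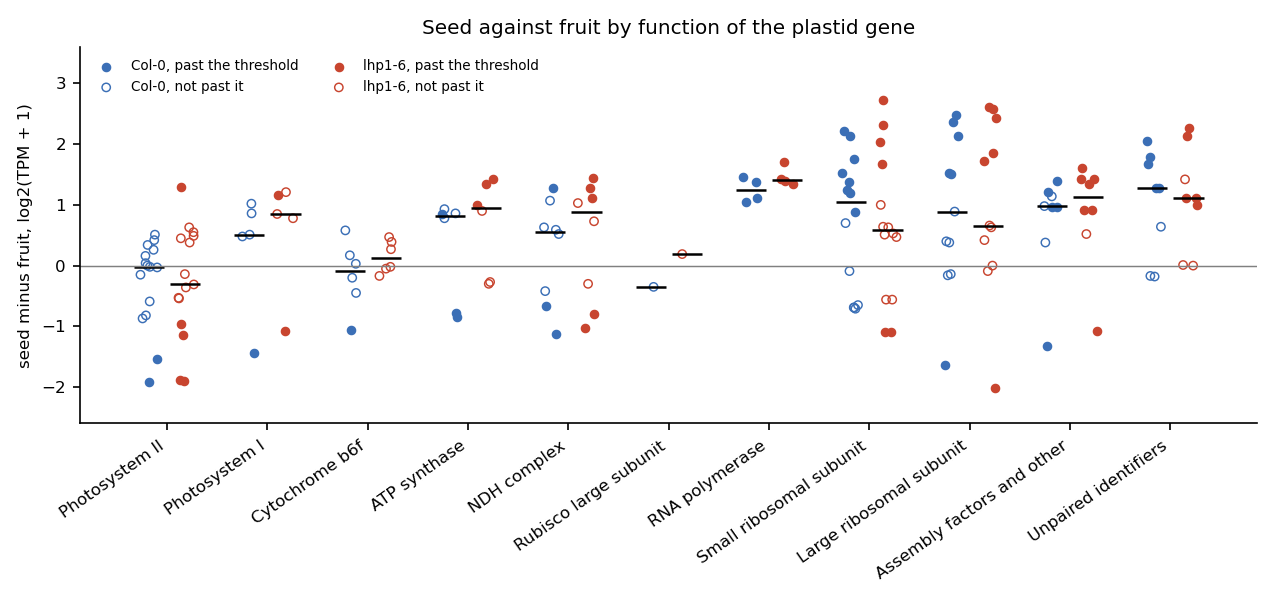
Change from fruit to seed of each tested plastid gene, in log2(TPM + 1), by function, for Col-0 (blue) and lhp1-6 (red). Filled points passed limma's adjusted p of 0.05, open points did not, and black lines are medians. All 4 RNA polymerase genes are filled and above 0 in both genotypes, rpl36 stands at 2.61 in lhp1-6, and the photosystem II genes have medians of -0.02 and -0.31 with psbA near -1.9.

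Photosystem II, which splits water and starts electron transport, had 15 listed genes. None was higher and 2 were lower in Col-0 seed, psbA and psbM, and 1 was higher (psbZ) and 4 lower (psbA, psbM, psbI, psbT) in lhp1-6 seed. Without lhp1-6 seed replicate 2, psbZ did not pass (0.66, adjusted p = 0.133), and psbK, psbJ and psbB were lower too (-1.06, -0.59 and -0.79). The psbZ call was also lost without lhp1-6 fruit replicate 1 or 3 (adjusted p = 0.0972 and 0.0878). The lhp1-6 call of psbI (adjusted p = 0.0441) was lost without any 1 lhp1-6 library other than seed replicate 2, and that of psbT (0.0283) without fruit replicate 2 or 3 or seed replicate 1 or 3, with adjusted p of 0.0564 to 0.149. With same-numbered fruit and seed libraries as a replicate block, psbI and psbT were lower in Col-0 as well (-0.87 and -0.82). psbA (ATCG00020) encodes the D1 protein of the reaction centre, which is replaced fastest under light damage. Its level was 179, 100.4 and 96.0 TPM in fruit of Col-0 and 34.4, 34.1 and 25.2 TPM in Col-0 seed. In lhp1-6 it was 97.9, 94.2 and 99.9 TPM in fruit and 20.01, 42.6 and 19.1 TPM in seed. Every seed library lay below every fruit library, in both genotypes. psbA fell by 1.92 on the log2 scale in Col-0 (SE 0.3, adjusted p = 0.00011) and by 1.9 in lhp1-6 (SE 0.3, adjusted p = 0.00014), and it was the one gene lower in both genotypes whose fall also exceeded 1 log2 unit in a test against that minimum in both (adjusted p = 0.0189 and 0.0248).

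psbM (ATCG00220), a small subunit at the interface of the photosystem II dimer, stood at 15.1, 8.05 and 26.3 TPM in fruit of Col-0 against 5.25, 4.16 and 4.19 TPM in Col-0 seed. The lhp1-6 libraries held 20.7, 19.9 and 16.4 TPM in fruit and 3.01, 6.15 and 4.45 TPM in seed. No seed library reached a fruit library of its genotype. It changed by -1.53 (SE 0.34, adjusted p = 0.00134) in Col-0 and -1.89 (SE 0.34, adjusted p = 0.000328) in lhp1-6. At 105 bases it is among the shortest members and rested on 6 to 37 reads per library.

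The other core proteins of photosystem II did not pass. psbD (ATCG00270), the D2 partner of D1, was at 30.3, 11.4 and 9.77 TPM in fruit of Col-0 against 16.4, 18.2 and 12.7 TPM in Col-0 seed. Its lhp1-6 levels were 9.39, 11.5 and 9.32 TPM in fruit and 7.93, 33.4 and 10.2 TPM in seed. Seed and fruit overlapped in both genotypes, with changes of 0.04 (adjusted p = 0.934) and 0.45 (adjusted p = 0.403). psbC (ATCG00280), the CP43 antenna protein whose gene overlaps that of psbD, followed with 24.8, 9.60 and 8.45 TPM in fruit of Col-0 and 18.6, 18.1 and 13.1 TPM in Col-0 seed. Its lhp1-6 levels were 8.36, 10.2 and 9.92 TPM in fruit and 8.40, 28.1 and 8.35 TPM in seed, and its changes were 0.34 and 0.38 (adjusted p = 0.488 and 0.443). Reads in the overlap could belong to either gene. For both genes Col-0 fruit replicate 1 and lhp1-6 seed replicate 2 were the highest library of their group. Without these libraries psbD and psbC were higher in Col-0 seed (0.52 and 0.8, adjusted p = 0.0141 and 0.000662) and not called in lhp1-6 (-0.14 and -0.16).

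Photosystem I had 5 genes. The pair that forms its reaction centre, psaA (ATCG00350) and psaB (ATCG00340), did not pass in either genotype with all libraries. psaA was at 25.7, 12.4 and 9.08 TPM in fruit of Col-0, 23.7, 21.7 and 16.4 TPM in Col-0 seed, 9.19, 9.66 and 9.57 TPM in lhp1-6 fruit and 12.8, 34.7 and 12.6 TPM in lhp1-6 seed. psaB was at 24.6, 10.6 and 9.68 TPM in fruit of Col-0, 22.4, 21.0 and 16.7 TPM in Col-0 seed, 9.86, 8.15 and 9.70 TPM in lhp1-6 fruit and 11.6, 32.9 and 11.6 TPM in lhp1-6 seed. In lhp1-6 all seed libraries lay above all fruit libraries for both, with changes of 0.85 (adjusted p = 0.0693) and 0.78 (adjusted p = 0.0898). In Col-0 fruit and seed overlapped, with changes of 0.48 and 0.51 (adjusted p = 0.278 and 0.25). Without Col-0 fruit replicate 1 both were higher in Col-0 seed (0.88 and 0.91, adjusted p = 0.0385 and 0.0329). Without lhp1-6 seed replicate 2 the lhp1-6 changes were 0.38 and 0.3 (adjusted p = 0.305 and 0.395), and with the replicate block psaA was higher in lhp1-6 seed (adjusted p = 0.0338).

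psaJ (ATCG00630), a small peripheral subunit, moved the other way. It stood at 35.7, 32.7 and 53.6 TPM in fruit of Col-0 against 12.2, 15.4 and 14.7 TPM in Col-0 seed, and at 40.2, 38.4 and 34.2 TPM in lhp1-6 fruit and 15.98, 21.5 and 14.99 TPM in lhp1-6 seed. No seed library reached a fruit library. The change of -1.44 in Col-0 (SE 0.18, adjusted p = 2.47e-05) had the smallest adjusted p of any plastid gene in that comparison, and the change in lhp1-6 was -1.07 (SE 0.18, adjusted p = 0.000244). psaJ also had the lowest ratio of lhp1-6 seed replicate 2 to the rest of its group. psaC, the subunit that holds the terminal iron-sulphur clusters, was higher in lhp1-6 seed (1.17, adjusted p = 0.0408), and in Col-0 its change was 1.02 (adjusted p = 0.0648). The lhp1-6 call of psaC was lost without seed replicate 2 (0.63, adjusted p = 0.178) and without any 1 fruit library (adjusted p = 0.0704 to 0.0954). In Col-0 it passed without fruit replicate 1 (1.45, adjusted p = 0.0122) and with the replicate block (adjusted p = 0.0275).

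Of 6 cytochrome b6f genes, which link the photosystems, only petL was called, lower in Col-0 seed (-1.06, adjusted p = 0.0152). With Col-0 seed replicate 2 left out it missed the threshold (0.0587). With the replicate block petG was higher in seed in both genotypes. petL and petA were lower in lhp1-6 seed without replicate 2 (-0.66 and -0.61, adjusted p = 0.0119 and 0.0271). The most abundant, petB (ATCG00720), which encodes cytochrome b6, was at 30.9, 12.2 and 13.2 TPM in fruit of Col-0 against 20.1, 17.4 and 15.4 TPM in Col-0 seed, a change of 0.03 (adjusted p = 0.945). The lhp1-6 libraries held 10.2, 12.5 and 8.78 TPM in fruit and 9.74, 30.4 and 10.5 TPM in seed, a change of 0.47 (adjusted p = 0.312). Fruit and seed overlapped in both genotypes. Without both libraries high in plastid reads, petB was higher in Col-0 seed (0.44, adjusted p = 0.0183).

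The 6 ATP synthase genes split by transcription unit. The atpI-atpH-atpF-atpA run had positive changes in both genotypes, of 0.78 to 0.93 in Col-0, where only atpI passed, and 0.90 to 1.42 in lhp1-6, where atpI, atpF and atpA passed. The Col-0 call of atpI (adjusted p = 0.0485) was lost with the replicate block (0.0545) and without any 1 Col-0 library other than fruit replicate 1 (0.0723 to 0.173). Without fruit replicate 1, atpI, atpF and atpA all passed in Col-0 (1.13, 1.28 and 1.25). In lhp1-6, atpF alone of the 3 passed without seed replicate 2 (0.85, adjusted p = 0.0484), and atpA and atpI were at 0.81 and 0.52 (adjusted p = 0.0773 and 0.0844). The lhp1-6 call of atpA was also lost without fruit replicate 1 (0.0592), and that of atpI without fruit replicate 2 or 3 (0.0579 and 0.0614). The atpB-atpE pair was lower in Col-0 seed, with changes of -0.85 and -0.78, and was not called in lhp1-6. atpB (ATCG00480), the catalytic beta subunit, was at 24.3, 24.1 and 27.4 TPM in fruit of Col-0 against 14.1, 14.2 and 12.3 TPM in Col-0 seed (adjusted p = 0.0112). In lhp1-6 it was at 14.7, 18.5 and 17.6 TPM in fruit and 10.4, 24.96 and 10.01 TPM in seed, where replicate 2 alone lay above fruit (-0.27, adjusted p = 0.363). Without that library atpB and atpE were lower in lhp1-6 seed too (-0.67 and -0.59, adjusted p = 0.000393 and 0.0488). The Col-0 call of atpE was lost without fruit replicate 1 (-0.65, adjusted p = 0.0622) or seed replicate 3 (0.0898).

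rbcL (ATCG00490), the large subunit of the carbon-fixing enzyme Rubisco, did not pass in either genotype. It stood at 100.6, 42.1 and 42.6 TPM in fruit of Col-0 against 45.9, 45.4 and 41.7 TPM in Col-0 seed, and at 30.8, 32.8 and 34.1 TPM in lhp1-6 fruit and 29.4, 68.3 and 25.7 TPM in lhp1-6 seed. Tissues overlapped in both genotypes, with changes of -0.35 (SE 0.37, adjusted p = 0.394) and 0.19 (SE 0.37, adjusted p = 0.64). Without both high libraries it was lower in lhp1-6 seed (-0.24, adjusted p = 0.021). Its nuclear partners, the small subunit genes RBCS1B, RBCS2B and RBCS3B, fell by 5.73 to 7.96 log2 units in the 2 genotypes (adjusted p from 9.73e-11 to 7.39e-10). RBCS1B stood at 351 to 469 TPM in fruit of Col-0 and 2.53 to 4.12 TPM in Col-0 seed. The abundant RBCS1A fell by 0.93 and 0.91. These 4 genes are close copies whose reads the counting could share.

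The NDH complex carries electrons around photosystem I, and its 9 named genes were weakly expressed. ndhK (ATCG00430), the most abundant, stood at 3.99, 3.65 and 3.08 TPM in fruit of Col-0 against 2.19, 2.25 and 1.30 TPM in Col-0 seed. In lhp1-6 it stood at 3.68, 4.38 and 3.50 TPM in fruit and 1.01, 2.14 and 1.15 TPM in seed. All seed libraries lay below all fruit libraries in each genotype. It fell in both (-0.66, adjusted p = 0.00724, and -1.02, adjusted p = 0.000479), as did its neighbour ndhJ (-1.13 and -0.79). The lhp1-6 call of ndhJ (adjusted p = 0.03) was lost without any 1 lhp1-6 fruit library (adjusted p = 0.0521 to 0.0686) and without seed replicate 1 or 3 (0.0917 and 0.116), and was kept without seed replicate 2 (-1.09, 0.00523). The genes of the other NDH unit had positive changes: ndhE was higher in Col-0 seed (1.27, adjusted p = 0.0227), and ndhG, ndhA and ndhH in lhp1-6 seed (1.27, 1.12 and 1.44). Without lhp1-6 seed replicate 2, ndhH passed (0.81, adjusted p = 0.0325) and ndhG and ndhA did not (0.72 and 0.61, adjusted p = 0.0711 and 0.0919). The calls of ndhG and ndhA were lost without lhp1-6 fruit replicate 1 as well (0.0608 and 0.0665), and that of ndhA without fruit replicate 3 (0.0561). The ndhE call was lost without Col-0 fruit replicate 2 or 3 or seed replicate 1 (0.0844, 0.0658 and 0.0961). With the replicate block ndhE passed in lhp1-6 too (1.03, adjusted p = 0.00629). ndhF (ATCG01010) stayed between 0.106 and 0.457 TPM, with 4 to 19 reads per library, and was not tested.

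All 4 core subunits of the plastid RNA polymerase were higher in seed in both genotypes, by 1.05 to 1.46 in Col-0 and 1.35 to 1.70 in lhp1-6. rpoB (ATCG00190), the most abundant, was at 5.17, 3.75 and 4.96 TPM in fruit of Col-0 against 9.65, 14.7 and 9.43 TPM in Col-0 seed. In lhp1-6 it was at 2.20, 4.32 and 3.88 TPM in fruit and 10.3, 13.3 and 8.40 TPM in seed. The lowest seed library was above the highest fruit library in each genotype. Its changes were 1.11 (SE 0.23, adjusted p = 0.00103) and 1.4 (SE 0.23, adjusted p = 0.000214), the latter the smallest adjusted p among genes higher in lhp1-6 seed. rpoC1, its neighbour, changed by 1.05 and 1.42 (adjusted p = 0.00949 and 0.00166). The calls of rpoB held under all alternatives tried except the test against a minimum of 1 log2 unit.

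Ribosomal protein genes made up 25 members. In Col-0 seed 13 were higher and 1 lower, and in lhp1-6 seed 9 were higher and 3 lower, with median changes of 0.89 and 0.63. rpl16 had the largest rise of all plastid genes in Col-0. rpl16 (ATCG00790) was at 5.62, 0.888 and 2.38 TPM in fruit of Col-0 against 21.3, 21.5 and 13.5 TPM in Col-0 seed. Its lhp1-6 levels were 2.19, 2.71 and 3.19 TPM in fruit and 14.3, 51.3 and 12.2 TPM in seed. In each genotype seed lay wholly above fruit, with lhp1-6 seed replicate 2 the highest of all. Its changes were 2.48 (SE 0.53, adjusted p = 0.00107) and 2.58 (SE 0.53, adjusted p = 0.00088).

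rps18 (ATCG00650) had the smallest adjusted p among genes higher in Col-0 seed, though it rested on 0 to 17 reads per library. Its levels were 0.577, 0.790 and 0 TPM in fruit of Col-0 and 1.98, 3.03 and 2.16 TPM in Col-0 seed (1.25, SE 0.24, adjusted p = 0.000532). The lhp1-6 libraries held 0.835, 0.380 and 0.774 TPM in fruit and 0.860, 1.94 and 1.19 TPM in seed, which parted without passing (0.47, adjusted p = 0.0925).

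rps7 (ATCG00900), the most abundant small subunit gene, did not pass with all libraries. It stood at 19.1, 15.6 and 21.2 TPM in fruit of Col-0, 12.7, 13.1 and 7.87 TPM in Col-0 seed, 11.2, 12.8 and 14.3 TPM in lhp1-6 fruit and 5.85, 15.8 and 5.99 TPM in lhp1-6 seed. In Col-0 seed lay wholly below fruit, and in lhp1-6 seed replicate 2 lay above it. Its changes were -0.71 and -0.56 (adjusted p = 0.0553 and 0.119). Both rps7 entries were lower in lhp1-6 seed without replicate 2 (-0.99 and -0.98, adjusted p = 0.00149 and 0.00141). The neighbouring rps12 entries were lower in lhp1-6 seed, with changes of -1.1 each. Each covers 258 bases, only part of rps12, and no identifier was paired with the rest of that gene.

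rpl32 (ATCG01020), the most abundant ribosomal gene, was the exception among large subunit genes. It stood at 31.1, 34.6 and 103.3 TPM in fruit of Col-0 against 18.01, 18.5 and 9.68 TPM in Col-0 seed, and at 76.0, 82.3 and 57.0 TPM in lhp1-6 fruit and 20.2, 22.0 and 10.8 TPM in lhp1-6 seed. Every seed library was below every fruit library, though Col-0 fruit was widely spread. Its changes were -1.64 (SE 0.43, adjusted p = 0.00443) and -2.01 (SE 0.43, adjusted p = 0.00129).

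Among the other named genes, both entries of ycf1 and of ycf2 were higher in seed in both genotypes, and accD and ycf4 in lhp1-6 seed. accD (ATCG00500), a subunit of the acetyl-CoA carboxylase that starts fatty acid synthesis, was at 3.45, 2.10 and 1.17 TPM in fruit of Col-0 against 6.53, 5.80 and 3.52 TPM in Col-0 seed. In lhp1-6 it was at 1.09, 1.47 and 1.01 TPM in fruit and 2.76, 12.2 and 2.44 TPM in seed. Seed lay above fruit in both genotypes, by 0.98 (SE 0.46, adjusted p = 0.0645) in Col-0 and 1.35 (SE 0.46, adjusted p = 0.018) in lhp1-6. In Col-0, accD and ycf4 passed without fruit replicate 1 (1.24 and 1.63, adjusted p = 0.0337 and 0.00683) and with the replicate block (0.021 and 0.0231). In lhp1-6 their changes without seed replicate 2 were 0.72 and 1.02 (adjusted p = 0.0455 and 0.0463). clpP (ATCG00670), a subunit of the plastid Clp protease, was at 9.96, 8.48 and 13.4 TPM in fruit of Col-0, 13.6, 15.1 and 13.1 TPM in Col-0 seed, 9.30, 9.35 and 9.22 TPM in lhp1-6 fruit and 11.2, 24.3 and 9.39 TPM in lhp1-6 seed. Fruit and seed overlapped in Col-0 and parted narrowly in lhp1-6. It did not pass (0.38 and 0.52, adjusted p = 0.21 and 0.101). The long ycf1 entry (ATCG01130), whose product is placed at the inner envelope, rose from 0.151 ± 0.141 to 1.73 ± 0.690 TPM in Col-0 (SD, n = 3).

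cemA (ATCG00530), which encodes an envelope membrane protein, was the one gene of this group that was lower in seed. It was at 17.1, 18.6 and 30.1 TPM in fruit of Col-0 against 9.499, 8.14 and 6.22 TPM in Col-0 seed, and at 18.4, 19.8 and 18.03 TPM in lhp1-6 fruit and 6.41, 16.5 and 5.41 TPM in lhp1-6 seed. Seed lay wholly below fruit in both genotypes. The change was -1.33 in Col-0 (SE 0.34, adjusted p = 0.00331) and -1.07 in lhp1-6 (SE 0.34, adjusted p = 0.0123). The lhp1-6 call was lost without seed replicate 3 (adjusted p = 0.0561). ccsA, needed to attach haem to cytochromes c, was at 0 to 1.17 TPM and was not tested.

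Of the 8 identifiers with no paired name, 5 were higher in seed in each genotype, and 4 of these were shared (ATCG01050 passed in lhp1-6 with adjusted p = 0.0358). The call of ATCG01050 was lost without lhp1-6 seed replicate 2 (0.52, adjusted p = 0.148) and without any 1 lhp1-6 fruit library (0.0618 to 0.0811). ATCG00040 stood at 2.38, 0.382 and 0.708 TPM in fruit of Col-0 against 8.88, 7.35 and 5.95 TPM in Col-0 seed, and at 0.728, 0.662 and 0.562 TPM in lhp1-6 fruit and 4.83, 17.0 and 3.71 TPM in lhp1-6 seed. Every seed library was above every fruit library of its genotype. It rose by 2.06 (SE 0.45, adjusted p = 0.0014) and 2.26 (SE 0.45, adjusted p = 0.000792). ATCG00360 stood at 4.63, 2.85 and 1.57 TPM in fruit of Col-0 against 11.999, 12.3 and 9.38 TPM in Col-0 seed. Its lhp1-6 levels were 1.34, 1.83 and 1.56 TPM in fruit and 7.18, 24.7 and 5.85 TPM in seed, and it rose by 1.67 and 2.14 (adjusted p = 0.00387 and 0.000826).

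ATCG00870 and ATCG01270 had equal counts in all 12 libraries. Both stood at 0.503, 0.258 and 0 TPM in fruit of Col-0 against 2.59, 1.63 and 1.88 TPM in Col-0 seed, and at 0.273, 0.497 and 0.253 TPM in lhp1-6 fruit and 1.12, 3.45 and 1.55 TPM in lhp1-6 seed (1.28 and 1.11, adjusted p = 0.000677 and 0.00194), on at most 15 reads. ATCG00065, at 8.26, 0 and 3.27 TPM in fruit of Col-0, 10.1, 16.7 and 7.24 TPM in Col-0 seed, 5.61, 3.57 and 2.08 TPM in lhp1-6 fruit and 6.00, 26.5 and 8.19 TPM in lhp1-6 seed, passed in Col-0 alone (1.79, adjusted p = 0.0425). That call was lost under several settings, among them the replicate block (adjusted p = 0.0623) and leaving out Col-0 fruit replicate 2 (adjusted p = 0.180) or 3 (0.0601), or Col-0 seed replicate 1 (0.0768) or 2 (0.128).

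Along the order of the genes, some neighbours had like changes and others did not. In the annotation, rpl14, rpl16, rps3 and rpl22 stand next to each other, and all 4 were higher in seed in both genotypes, by 1.53 to 2.48 in Col-0 and 1.85 to 2.58 in lhp1-6. Next to rpl22, rps19 was called in Col-0 (1.38, lost without fruit replicate 2 or seed replicate 1, adjusted p = 0.073 and 0.0548) and not in lhp1-6 (0.64), and beyond it rpl2 and rpl23 had changes between -0.14 and 0.66. Other neighbours had opposite signs. accD, psaI and ycf4 had changes of 0.86 to 1.14 in Col-0, none of them called, and cemA, the next gene, had -1.33 and was called. psaJ had -1.44 beside rpl33, rps18 and rpl20 at 0.89 to 1.51, and rps4 at 1.53 stood beside ndhJ at -1.13. All of these but rpl33 were called in Col-0. The difference in change between neighbours was not tested.

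**Figure D4:**
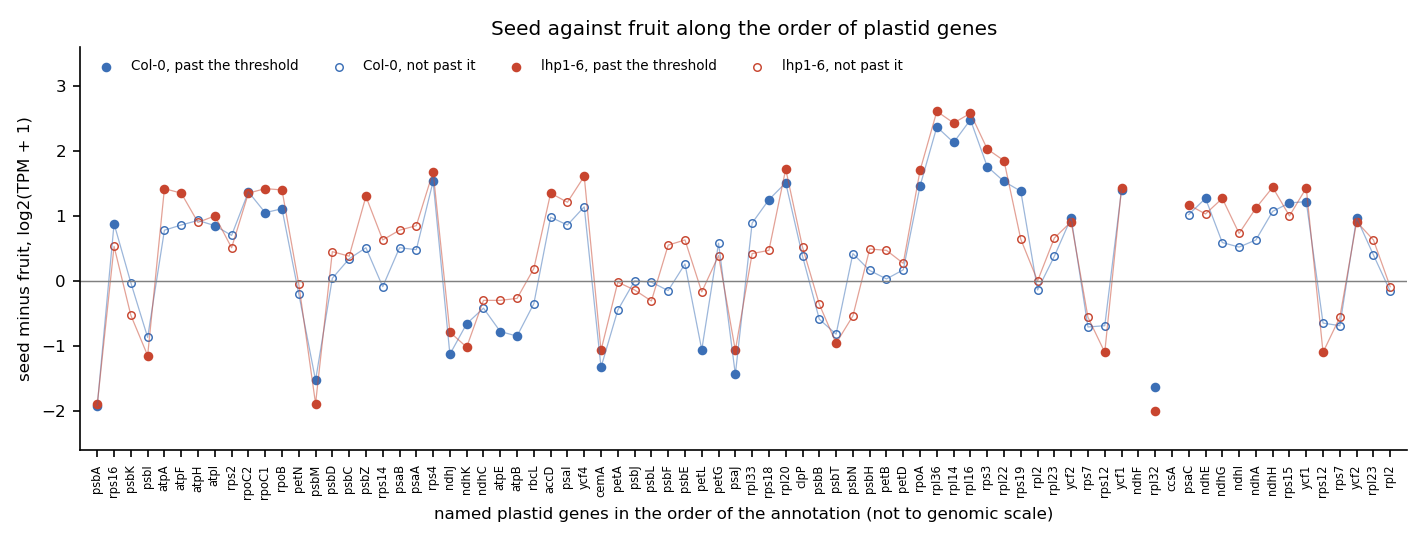
Change from fruit to seed, in log2(TPM + 1), of named plastid entries set in the order of the annotation (not to genomic scale), for Col-0 (blue) and lhp1-6 (red). Filled points passed the threshold, and the 2 untested genes have no point. The 4 genes from rpl14 to rpl22 form a run at or above 1.53, and both genotypes follow nearly the same line.

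7 pairs of entries, which lie in the repeated part of the plastid genome, held nearly the same reads. Over the 12 libraries the members of 6 pairs (rps12, rps7, ycf2, rpl23, ATCG00890 with ATCG01250, and ATCG00870 with ATCG01270) differed by at most 2 reads in any library. The rpl2 entries differed by up to 29 reads, with 2764 and 2963 reads in all. Their levels are not independent, and each counts as 2 members above. With 1 entry of each pair, the plastid share was 0.0434% to 0.142%.

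Nuclear genes that act on plastid transcription were counted from set lists. Of all genes tested, 45.3% were higher and 37.7% lower in Col-0 seed, and 39.3% and 41.1% in lhp1-6 seed. All 6 sigma factors were lower in seed in both genotypes (adjusted p at most 0.007). SIG4 stood at 26.6, 28.1 and 27.0 TPM in fruit of Col-0 against 0.0758, 0.0750 and 0.189 TPM in Col-0 seed, a change of -4.67, and changed by -4.98 in lhp1-6. SIG1 changed by -2.32 and -2.25, and SIG3 by -1.99 and -2.12. The polymerase-associated proteins, which the bacterial-type polymerase of chloroplasts carries, went mostly the other way, with 9 of 12 higher and 1 lower (PTAC6) in each genotype. FSD3, an iron superoxide dismutase, rose by 1.17 and 1.09, FSD2 by 1.21 and 1.03, and PTAC12 by 1.39 and 1.04. PTAC6 changed by -0.61 and -0.88.

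Of the phage-type polymerases, RPOTp was higher in Col-0 seed (0.55, adjusted p = 0.00475) and RPOTmp lower in lhp1-6 seed (-0.69, adjusted p = 0.00061). Among 4 regulators of greening, GLK2, which drives photosynthesis genes, changed by -2.54 and -2.27, GLK1 by 0.59 and 0.65, GUN1 by -0.21 and -0.26, and GUN4 by -0.57 in Col-0 (-0.38 in lhp1-6, not called). Of 28 nuclear subunits that join plastid-encoded ones, 27 were lower in Col-0 seed and 24 in lhp1-6 seed, with none higher and median changes of -1.14 and -0.89. Over the 32 plastid genes of the photosystems, cytochrome b6f and ATP synthase, 1 was higher and 6 lower in Col-0 seed and 5 higher and 5 lower in lhp1-6 seed, with medians of 0.04 and 0.33. The same tissue markers that part seed from fruit move with all these counts, and their part was not tested. Mitochondrion-encoded genes had 31 of 52 higher and 6 lower in Col-0 seed, and 17 and 9 in lhp1-6 seed. Beside all counts in this paragraph, 45.3% of all genes were higher and 37.7% lower in Col-0 seed, and 39.3% and 41.1% in lhp1-6 seed.

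lhp1-6 was then compared with Col-0 in each tissue. In fruit no plastid gene passed (limma, 0 of 86), where 5.75% of all genes tested were higher and 9.19% lower, 14.9% in all. At an unadjusted p under 0.05 there were 2 (psbN higher and ndhC lower), beside 5927 of the 19946 genes tested. limma-voom on the recovered reads also called 0 plastid genes. Its share over all genes was not computed, here or in the comparisons below. The median change was -0.24, beside -0.03 over all genes tested. Negative changes were seen for 65 of 86 members, beside 10824 of the 19946 genes tested. The members share transcription units and libraries, so their sign count is a description. The plastid median was smaller in size without Col-0 fruit replicate 1, a library high in plastid reads. lhp1-6 libraries lay wholly below Col-0 for 15 of 86 members, near the 15.6% of all genes tested for which they did. Among the 15 were rbcL, atpB, psbB, petA and rpoA, and both entries each of rps7 and ycf2. They lay wholly above for 2, psbN and psbK (background 11.3%). rbcL had 100.6, 42.1 and 42.6 TPM in fruit of Col-0 against 30.8, 32.8 and 34.1 TPM (-0.78, SE 0.37, adjusted p = 0.186), and atpB 24.3, 24.1 and 27.4 against 14.7, 18.5 and 17.6 TPM (-0.55, SE 0.27, adjusted p = 0.192). psbA had a change of -0.3 (SE 0.3, adjusted p = 0.558).

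The smallest adjusted p in fruit was that of psbN (ATCG00700), a gene needed for assembly of photosystem II. It stood at 1.34, 0.458 and 0.565 TPM in Col-0 and 2.42, 2.20 and 3.59 TPM in lhp1-6 (1.08, SE 0.35, adjusted p = 0.0615), on 1 to 8 reads per library. The annotation places it on the opposite strand from its neighbours psbT and psbH, and whether reads were counted by strand is not given in the sources used here. Its reads and those of the other strand cannot be told apart. psbN passed without Col-0 fruit replicate 1 (adjusted p = 0.0249, where 14.2% of all genes were higher), and without both libraries high in plastid reads it was higher (15% of all genes) while rbcL and atpB were lower (14.4%).

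In seed no plastid gene passed either (limma, 0 of 86), where 1.85% of all genes tested were higher and 10.2% lower, 12.1% in all. At an unadjusted p under 0.05 there was 1, rps18, beside 5879 of the 19946 genes tested, and limma-voom called 0 plastid genes. The median change was -0.10, beside -0.15 over all genes tested, and it turned to 0.05 after median-of-ratios rescaling and 0.10 after quantile normalisation. rps18 was at 1.98, 3.03 and 2.16 TPM in Col-0 seed and 0.860, 1.94 and 1.19 TPM in lhp1-6 seed (-0.56, SE 0.24, adjusted p = 0.153). It was the only member whose lhp1-6 seed libraries lay wholly below Col-0, where 41.5% of all genes tested did, and no member lay wholly above (6.71%).

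The values in seed depended on lhp1-6 replicate 2. Without it the median change was -0.60, and 12 of 86 members were lower and none higher, where 10.5% of all genes were lower and 2.04% higher. The members called lower were thus near the share over all genes. Among the 12 were psbK, petA, rpl33, rps15, rps19 and both entries each of ycf2, rps7 and rps12. Without replicate 1 or replicate 3 in its place, 0 were called and the medians were 0.12 and 0.16. With Col-0 fruit replicate 1 left out as well as lhp1-6 seed replicate 2, 38 were lower and none higher (background 21.9% and 3.51%), among them psbA, rbcL, psaA, psaB, psbD, psbC, accD and rpoC2. Both libraries were left out because their plastid reads were high, so these counts are descriptions and no test of a genotype effect. Col-0 fruit replicate 1 is not in the seed comparison and acts on it only through the variance shared by all groups. With array weights, which weigh down deviating libraries, 18 of 86 were lower and none higher. That is a smaller share than over all genes, of which 44% were lower and 6.31% higher. The SE of psbK was 0.37 with all libraries and 0.2 without both. For psbK the seed levels were 15.99, 14.1 and 10.9 TPM in Col-0 and 8.77, 22.3 and 5.02 TPM in lhp1-6. With the plastid total set equal in every library, 0 were called and the median was -0.01. Of the 11 seed markers, 6, all storage protein genes, were also higher in lhp1-6 seed than in Col-0 seed. The other 5 were not called, and the seed coat genes BAN and TT10 had changes of -1.07 and -0.43. Sums over the 11 were 37327 to 98996 against 9078 to 14446 TPM, and the part of these markers was not tested.

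**Figure D5:**
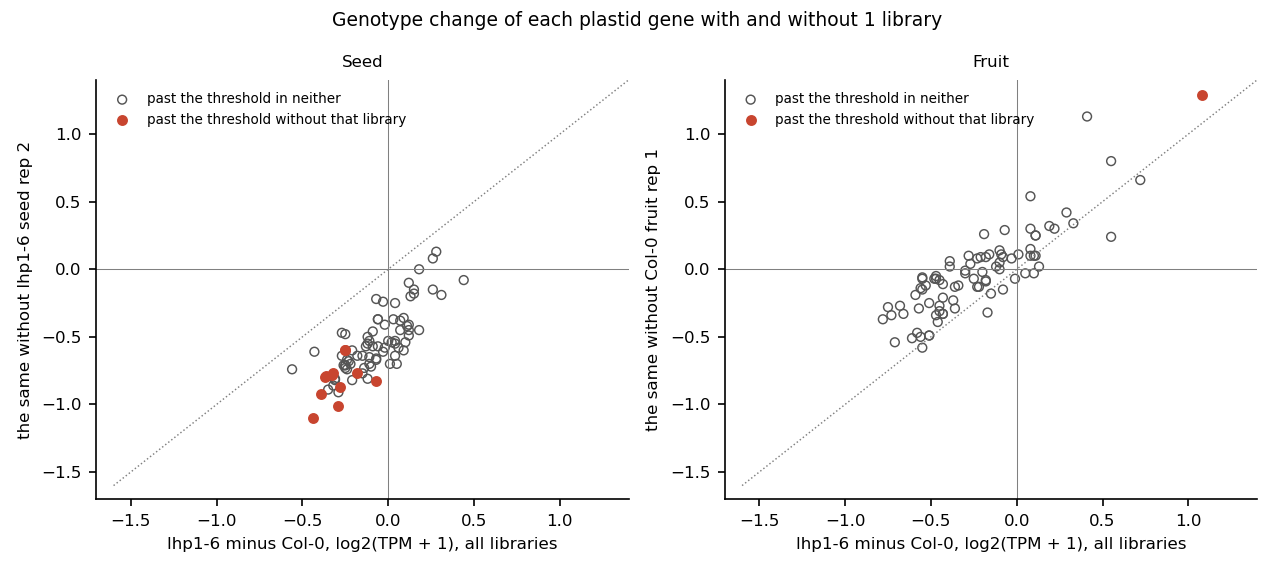
Change of each tested plastid gene between lhp1-6 and Col-0, in log2(TPM + 1), with all libraries (horizontal axis) and without 1 library (vertical axis), in seed without lhp1-6 replicate 2 and in fruit without Col-0 replicate 1. The dotted line marks equal values and filled points passed the threshold without that library. In seed the points fall below the line, with medians of -0.10 and -0.60, and in fruit most points lie above it, with medians of -0.24 and -0.06.

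The difference of the genotype effect between seed and fruit passed for no plastid gene (limma, 0 of 86, beside 5.51% of all genes). At an unadjusted p under 0.05 there was 1, rps18 (-0.78, SE 0.34, adjusted p = 0.201), beside 4619 of the 19946 genes tested. limma-voom called 0 plastid genes. The median difference was 0.18. Without lhp1-6 seed replicate 2 it was -0.34 and psbK and rpl33 were lower (background 4.75%). Without both libraries high in plastid reads it was -0.52 and 13 were lower (20.2%), psbA, psbB, psbC and psaB among them. Without Col-0 fruit replicate 1 the median was -0.01, and with array weights -0.33, so its sign turned with 1 library.

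Nuclear genes of plastid transcription were also compared between genotypes. In fruit 1 of 6 sigma factors, both phage-type polymerases, 1 of 12 associated proteins and 0 of 4 greening regulators were called, beside 14.9% of all genes. There RPOTmp (0.57, SE 0.13, adjusted p = 0.0183), RPOTp (0.50, SE 0.15, adjusted p = 0.0438) and PTAC6 (0.45, adjusted p = 0.0251) were higher in lhp1-6, and SIG5 was lower (-0.75, SE 0.13, adjusted p = 0.00426). SIG5, a light- and stress-responsive sigma factor, stood at 73.7, 74.6 and 68.1 TPM in fruit of Col-0 against 41.9, 53.8 and 33.6 TPM in lhp1-6 fruit. In seed none of the 6 sigma factors, 2 phage-type polymerases, 12 associated proteins or 4 greening regulators passed, beside 12.1% of all genes. The genotype effect on RPOTmp differed between seed and fruit (-0.81, SE 0.19, adjusted p = 0.0348). Of the 28 nuclear subunits, 1 was higher (RBCS1B) and 2 lower (PSAH1 and PSAN) in lhp1-6 fruit, and 3 were higher in lhp1-6 seed (RBCS1B, RBCS3B and PETC). Mitochondrion-encoded genes had 1 of 52 called in fruit and 2 in seed, all lower.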

How the data were processed

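Per the labels' protocols, RNA from a plant column kit was sequenced by DNBSEQ with paired ends of 100 bp. Per the submitters' processing notes, cutadapt 1.9.1, STAR 2.5, featureCounts and TAIR10 were used. The authors deposited TPM per gene, 1 table per library. RNA selection and strandedness are not given in the sources used here.

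TPM times gene length came out as whole multiples of 1 constant per library (within 0.002 reads) for every gene above 0 (24677 at the annotated exon length and 380 at another), which gave the counts and lengths. Names were paired by length with the TAIR10.1 annotation: 57 by a length of 1 gene only and 23 by length and neighbouring genes. As the builds differ, no positions or sequences are given.

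limma 3.58.1 in R 4.3.3 was fitted to log2(TPM + 1) over 19946 genes that reached 1 TPM in 3 or more libraries, with 1 mean per group and a variance trend. P-values were adjusted over all genes by the Benjamini-Hochberg method, threshold 0.05. limma-voom was run on the recovered reads, since TPM keeps no depth. The fit was tested on simulated data with 200 changed genes. Deviations of same-numbered fruit and seed libraries of a genotype from their group means had correlations across genes of 0.113 to 0.311. For same-numbered libraries of different genotypes they ran from -0.397 to 0.421, and libraries of unlike number were not compared. Whether the numbers pair the tissues is thus not settled. The main fit, which gave the tissue calls, uses no pairs, and the replicate block does.

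Values in every library are given for the most abundant member of each functional group, for set members (psbA, rbcL, psaA, psaB, psbC, psbD, rpoB, accD, clpP, ATCG00040, ndhF) and for the 3 called members per direction and comparison with the smallest adjusted p. Others named, such as rpl16, psbN and psbK, were chosen after their values were seen. Some members are not reported here singly. The members and lists were chosen with earlier results of these data known. Alternatives are listed in the closing section.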

Additional observations from a re-analysis of the deposited data

How the results depend on the processing

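Alternatives were pseudocounts of 0.1 and 5, no filter, a filter at 5 TPM, median-of-ratios, quantile and nuclear-total scaling, array weights, no variance trend, fits on a comparison's own libraries, a test against 1 log2 unit (minimum change), a replicate block, and leaving out each library. Leaving out both libraries high in plastid reads, an equal plastid total and limma-voom were added after seeing the data. Shares over all genes are given above where they were computed. For the other settings they were not, so whether a changed count is particular to plastid genes is not shown. For lhp1-6 against Col-0 in fruit, 1 member was called after quantile normalisation, 1 with an equal plastid total and 3 without both high libraries, and 0 to 1 with each library left out. In seed, 18 were called with array weights and 38 without both high libraries, and 0 to 12 with each library left out. For the difference of effects there were 13 without both and 0 to 2 with each left out. For seed against fruit in Col-0 (38), 22 were called at 5 TPM, 2 at the minimum change, 68 without both and 64 with an equal plastid total, and 34 to 48 with each left out. In lhp1-6 (43) there were 28 at 5 TPM, 8 at the minimum change and 35 to 46 with each left out. The replicate block gave 43 and 51 calls for the tissues and 0 for the rest. For lhp1-6 against Col-0 the block was the replicate number over all groups, though no label ties the genotypes by number. The block of same-numbered fruit and seed libraries ended the Col-0 calls of ATCG00065 and atpI. It added 4 higher and 3 lower in Col-0 and 8 higher in lhp1-6, and moved no count by over 1.5 times. Without psbA the mean plastid share of lhp1-6 fruit was 0.0602%. Of 539 repeats of the 26 calls of genes named by rule, 507 stayed past the threshold, 32 did not (21 at the minimum change) and 0 changed sign. Low counts limit the weak genes: up to 33 members per library rested on under 10 reads.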
